A study of Mus musculus with 8 samples.

Results

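The comparison set mouse induced pluripotent stem cells made from neural stem cells with 2 factors (NSC 2F iPSCs) against embryonic stem cells (ESCs), each measured on 1 Illumina bead array. The members were chosen as the probes detected on at least 1 of the 2 arrays and at least 2-fold apart after all 8 arrays of the series had been normalized together. They numbered 807 of the 25697 probes on the array, or 606 of its 16593 named genes. Detection left 11935 probes and 8193 genes open to the comparison, and the 807 were 6.76% of these probes, 514 higher (4.31%) and 293 lower (2.45%). The NSC 2F iPSCs came from neural stem cells (NSCs) carrying the Tet-On background, were made with retroviral *Oct4* and *Klf4*, and were grown on feeder cells in 2i medium to passage 7. The ESCs carried the Tet-On background too, and both lines are labelled B6D2F1/J, a first-generation hybrid of C57BL/6 and DBA/2 mice. How the ESCs were grown, and the sex of either line, are not given in the sources used here. The other 6 arrays held MEF 4F iPSCs (fibroblasts given *Oct4*, *Sox2*, *Klf4* and *Myc*, passage 7, B6D2F1/J), iNdiPSC clones 1 and 4 (iPSCs made from induced NSCs, labelled C3H), NSCs and mouse embryonic fibroblasts (MEFs, both B6D2F1/J), and the induced NSCs themselves (iNSCs, C3H). With 1 array a side there was no replicate, so no p-value or error could be given, and each difference below holds for these 2 arrays.

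ESCs in the naive state run on a network of transcription factors built around *Pou5f1* (Oct4), *Sox2* and *Nanog*, and iPSCs switch the same network on after forced expression of some of its members. The 2i medium holds inhibitors of MEK and of GSK3, which block ERK signalling and stabilize beta-catenin. Cultures of both kinds are often kept on fibroblast feeders, whose RNA can enter the extract. In female mammals *Xist* RNA silences an X chromosome in somatic cells, whereas naive pluripotent cells keep their X chromosomes active.

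Detection was at 44.6% of probes (11456) for NSC 2F iPSCs and 43.1% (11087) for ESCs, against a range of 44.1% to 47.2% on the other 6. The ESC array was the dimmest of the 8, with a median scanner intensity of 112 before normalization, against 117.5 for NSC 2F iPSCs. The other 6 lay between 118.7 and 128.2. How far this shaped the counts of higher genes and of genes undetected in ESCs was not tested. Values below are normalized log2 intensities, detection was set at a p under 0.01, and a gene was read from its probe with the highest mean over the 8 arrays. Where a gene was not detected on the dimmer array, its fold is given as "at least", taken against the lowest log2 value of any detected probe there (5.16 for NSC 2F iPSCs and 5.27 for ESCs). Low genes thus have bounds and not levels.

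Of the 8193 genes, 393 (4.80%) were at least 2-fold higher in NSC 2F iPSCs and 213 (2.60%) at least 2-fold lower, while 7587 lay within 2-fold. Among the 7301 genes detected on both arrays 248 (3.40%) were higher and 151 (2.07%) lower. With undetected values set to the lowest detected value, 316 (3.86%) were higher and 178 (2.17%) lower. The higher genes made up 64.9% of those apart, and 81.5% when no background was subtracted. A difference of 4-fold was reached by 65 of the higher genes and by 11 of the lower ones. Of the 393 higher genes, 145 were detected on the NSC 2F iPSC array alone, and of the 213 lower genes 62 were detected on the ESC array alone. The median difference of all genes was -0.01 on the log2 scale and its standard deviation over genes was 0.58, against 0.29 between the 2 iNdiPSC clones, where 36 of 7806 genes (0.461%) were 2-fold apart. Just inside the threshold were *Mib1* (log2 difference 1.0008) and *Ppp1r14d* (-1.0007), and just outside it *Slk* (0.997) and *Trib3* (-0.99987).

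**Figure D1:**
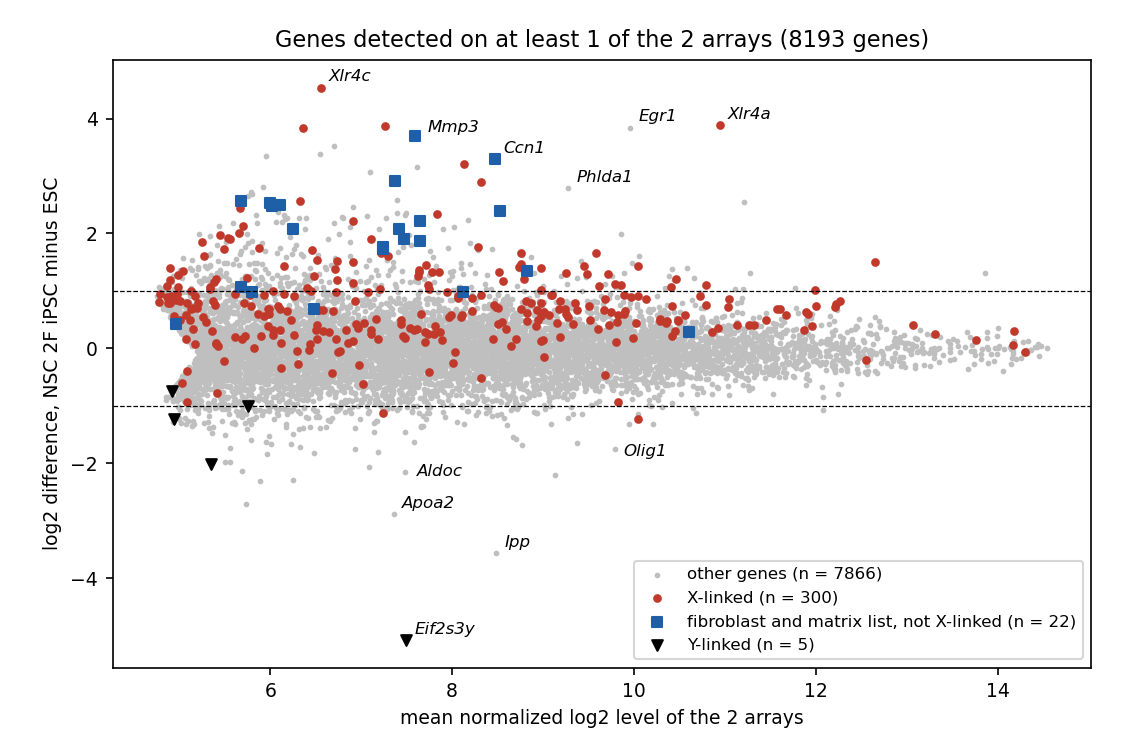
Log2 difference of each of the genes compared (vertical axis, NSC 2F iPSC minus ESC) against the mean log2 level of the 2 arrays (horizontal axis), with X-linked genes in red, the fibroblast and matrix list in blue squares, Y-linked genes as black triangles and dashed lines at 2-fold. The red points lie mostly above 0, all blue squares lie above 0, and Eif2s3y is the lowest point.

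The pluripotency network was at similar levels in both lines. All 8 markers of pluripotent cells were detected on both arrays, with a median level of 10.99 in NSC 2F iPSCs and 11.35 in ESCs. *Pou5f1* was at 12.34 in NSC 2F iPSCs and 12.79 in ESCs, a log2 difference of -0.45. *Sox2* was at 9.31 in NSC 2F iPSCs and 9.51 in ESCs, and *Nanog* at 12.64 in NSC 2F iPSCs and 12.27 in ESCs. None of these differences reached 2-fold. *Klf4*, the second factor delivered to the NSCs, was at 9.98 in NSC 2F iPSCs and 10.10 in ESCs. *Zfp42* (Rex1), a marker of the naive state, was at 9.59 in NSC 2F iPSCs and 9.54 in ESCs, and *Fgf4*, which *Pou5f1* and *Sox2* activate together, at 8.39 in NSC 2F iPSCs and 8.05 in ESCs. *Myc*, which was not among the delivered factors, was not detected on either array. In the list of core and general pluripotency genes 0 of 17 compared genes were 2-fold apart and the median difference was -0.07. In the naive list 0 of 13 were higher and 1 was lower, with a median of 0.16. The lower gene was *Gbx2*, a homeobox factor downstream of LIF and STAT3, at 9.48 in NSC 2F iPSCs and 10.61 in ESCs, with MEF 4F iPSCs at 10.73 and the clones at 8.73 and 8.39.

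X-linked genes stood apart as a group. Of 300 X-linked genes compared, 275 (91.7%) were above 0, with a median log2 difference of 0.67 and quartiles of 0.32 and 1.02, against a median of -0.03 over 7882 autosomal genes, of which 47.5% were above 0. The medians of the 19 autosomes ran from -0.11 on chromosome 17 to 0.07 on chromosome 18. Genes at least 2-fold higher were 79 of the 300 (26.3%) on the X and 313 of 7882 (3.97%) on the autosomes, while 2 X-linked genes (0.667%) and 208 autosomal genes (2.64%) were at least 2-fold lower. X-linked genes were thus 3.66% of the genes compared and 20.1% of those higher. A further 105 X-linked genes (35%) lay between 0.5 and 1. The shift was spread over most of the chromosome's genes and not carried by the 79 alone. Over the 242 X-linked genes detected on both arrays the median was 0.60.

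**Figure D2:**
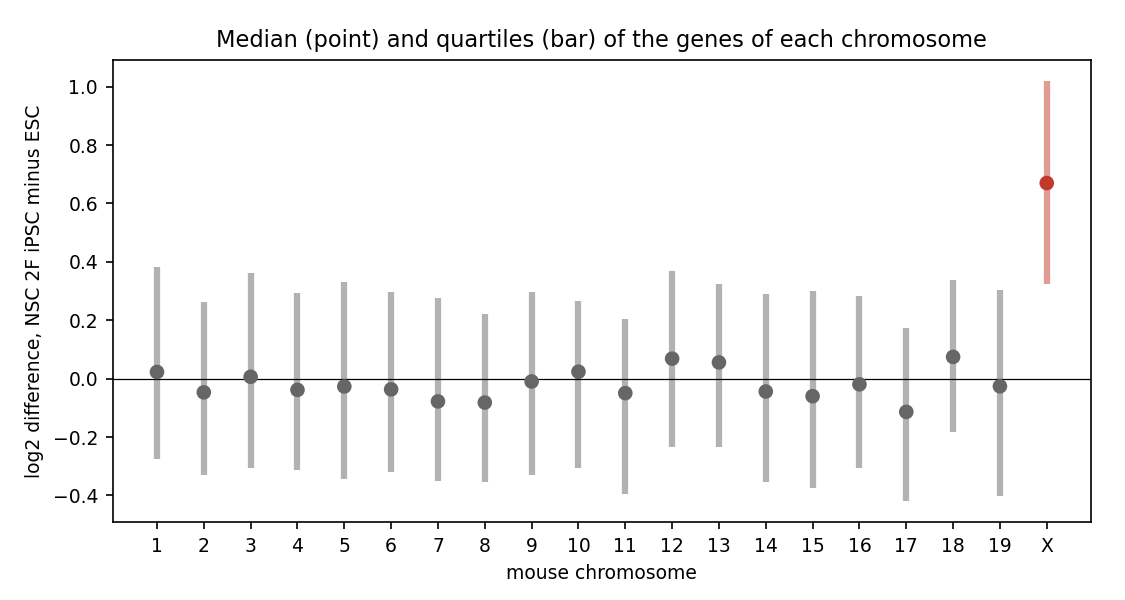
Median (point) and quartiles (bar) of the log2 difference, NSC 2F iPSC minus ESC, over the genes of each mouse chromosome. The X median of 0.67 and its lower quartile of 0.32 lie above every autosomal median, the highest of which is 0.07.

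The X-linked genes with the largest differences belonged in part to multi-copy families. *Xlr4a*, of the X-linked lymphocyte-regulated family, was at 12.88 in NSC 2F iPSCs and 9.0 in ESCs, 14.7-fold higher, with the other iPSCs between 11.80 and 12.93. Its relative *Xlr4c* was at 8.82 in NSC 2F iPSCs and not detected in ESCs, at least 11.7-fold higher, though its 2 detected probes differed by log2 values of 1.10 and 4.54. *Xlr5a* was at 8.28 in NSC 2F iPSCs and not detected in ESCs, at least 8.06-fold higher. Probes of such near-identical family members may share transcripts, so the share of each is uncertain. *Gm14685*, a predicted gene, was at 9.19 in NSC 2F iPSCs and 5.33 in ESCs, 14.6-fold higher. *Efhc2*, which encodes a protein with an EF-hand calcium-binding domain, was at 9.73 in NSC 2F iPSCs and 6.53 in ESCs, and its 9.20-fold difference was not shared by MEF 4F iPSCs at 6.93. *Fthl17f*, a ferritin heavy chain relative, was at 9.77 in NSC 2F iPSCs and 6.86 in ESCs, 7.47-fold higher, with MEF 4F iPSCs at 7.97 and the clones at 9.51 and 9.33. The homeobox gene *Rhox5*, a germline and placental factor, was at 13.40 in NSC 2F iPSCs and 11.90 in ESCs. In each of these 7 genes MEF 4F iPSCs lay between NSC 2F iPSCs and ESCs.

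Broadly expressed X-linked genes were higher by smaller folds. *Kdm6a* (Utx), an H3K27 demethylase, was at 10.76 in NSC 2F iPSCs and 9.32 in ESCs, 2.71-fold higher, with log2 differences of 1.44 and 1.59 on its 2 probes. The next 2 were chosen after their values were seen. *Usp9x*, a deubiquitinase, was at 9.16 in NSC 2F iPSCs and 7.40 in ESCs, with the other iPSCs between 7.86 and 8.30. *Rlim* (Rnf12), the ubiquitin ligase that activates *Xist*, was at 7.66 in NSC 2F iPSCs and 6.16 in ESCs. All 3 were at their lowest among pluripotent lines in the ESCs. *Xist* itself was not detected in NSC 2F iPSCs, the other iPSCs or ESCs, and was at 9.18 in NSCs and 5.67 in MEFs. The 2 lower X-linked genes, also outside the naming rule, were *Porcn*, which acylates Wnt proteins, at 9.42 in NSC 2F iPSCs and 10.66 in ESCs, and *Ccdc160* at 6.68 in NSC 2F iPSCs and 7.80 in ESCs.

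Y-linked transcripts were low or undetected in NSC 2F iPSCs. *Eif2s3y*, a subunit of translation initiation factor eIF2 encoded on the Y, was not detected in NSC 2F iPSCs and was at 10.03 in ESCs, at least 29.4-fold lower, the largest difference of the comparison. It was not detected in NSCs either, while MEF 4F iPSCs, both clones, iNSCs and MEFs lay between 9.89 and 10.72. *Kdm5d*, a Y-encoded H3K4 demethylase, was not detected in NSC 2F iPSCs or NSCs and was at 6.36 in ESCs, at least 2.30-fold lower. *Zfy1*, a zinc-finger factor, was not detected in NSC 2F iPSCs and was at 5.55 in ESCs, at least 1.32-fold lower. Thus 3 of the 5 Y-linked genes compared were called lower, of which *Eif2s3y* and *Kdm5d* stayed past 2-fold against the lowest detected value. *Uty*, the Y homologue of *Kdm6a* and again a gene chosen after its values were seen, was at 5.25 in NSC 2F iPSCs and 6.25 in ESCs, just short of 2-fold. The X and Y genes moved in opposite directions on the same pair of arrays, and with 1 array a side a difference between the lines in sex chromosomes cannot be told apart from one in how the cells were made. Without X-linked and Y-linked genes, 314 genes were higher and 208 lower. The median X-linked difference from NSC 2F iPSCs was 0.61 to MEF 4F iPSCs and 0.50 and 0.59 to clones 1 and 4. Those lines, set against the same ESC array, had X medians of 0.06, 0.17 and 0.11.

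Genes of fibroblasts and extracellular matrix were higher in NSC 2F iPSCs. Of 23 genes compared, 18 were at least 2-fold higher and 0 were lower, and all 23 lay above 0. The median log2 difference was 1.91, against -0.01 for all genes. Detection on both arrays held for 16 of the 23, whose median was 1.81. For a gene detected on 1 array alone, the filter largely set the direction. Against the lowest detected value 17 of the 18 stayed past 2-fold. *Mmp3* (stromelysin), a matrix-degrading protease, was at 9.44 in NSC 2F iPSCs and 5.74 in ESCs, 13-fold higher, with MEF 4F iPSCs at 7.47, the clones at 6.35 and 5.27, and MEFs at 8.13. It was higher in NSC 2F iPSCs than on any other array, MEFs included. *Ccn1* (Cyr61), a matricellular protein and a target of YAP and TEAD, was at 10.12 in NSC 2F iPSCs and 6.83 in ESCs, 9.83-fold higher, with the other iPSCs between 10.18 and 10.59. *Dcn* (decorin), a collagen-binding proteoglycan of connective tissue, was at 8.83 in NSC 2F iPSCs and 5.91 in ESCs, 7.55-fold higher, and at 12.71 in MEFs. *Lox*, which crosslinks collagen and elastin, was at 9.72 in NSC 2F iPSCs and 7.33 in ESCs, 5.24-fold higher, and at 13.98 in MEFs. For these 2 genes the level in MEFs was far above that of either line.

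The fibrillar collagens *Col1a1* and *Col3a1* were not detected in ESCs. *Col1a1* was at 7.29 in NSC 2F iPSCs, at least 4.05-fold higher, and *Col3a1* at 7.25, at least 3.94-fold higher, against MEF levels of 12.46 and 11.91. The surface glycoprotein *Thy1* was at 8.46 in NSC 2F iPSCs and 6.38 in ESCs, the metalloproteinase inhibitor *Timp3* at 8.76 in NSC 2F iPSCs and 6.55 in ESCs, and the proteoglycan *Bgn*, which is X-linked, at 10.41 in NSC 2F iPSCs and 8.75 in ESCs. The keratan sulphate proteoglycan *Lum* was at 7.26 in NSC 2F iPSCs and not detected in ESCs, at least 3.97-fold higher.

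The levels of fibroblast markers on the arrays were as follows. Of the 11 fibroblast markers fixed for this check, 8 were detected in NSC 2F iPSCs, 8 in MEF 4F iPSCs, 8 and 6 in clones 1 and 4, and 4 in ESCs, against 11 in MEFs. *Col1a2*, *Pdgfrb* and *Postn* were not detected in any pluripotent line. *Pdgfra* and *Lum*, with *Col1a1* and *Col3a1*, were detected in NSC 2F iPSCs and not in ESCs. The summed linear intensity of the 11 was 5269 in NSC 2F iPSCs, 5432 in MEF 4F iPSCs, 2230 and 2535 in the clones. It was 2360 in ESCs and 66841 in MEFs. In NSCs and iNSCs, where 4 and 2 of the 11 were detected, it was 4629 and 4846. The sum therefore cannot be read as a measure of fibroblasts alone. Set against MEFs, the 18 higher genes of the list were at 1.58% to 248% of the MEF level in NSC 2F iPSCs, with a median of 4.71%. In ESCs they were at a median of 1.05%, and 17 of the 18 lay under 10%. In NSC 2F iPSCs, 14 of the 18 lay under 10% of the MEF level, and *Mmp3* and *Ccn1* alone were over 50%. In bulk RNA, fewer cells of a type and less RNA per cell cannot be told apart, and the part of feeder cells in these differences was not tested.

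The genes high in MEFs were examined as a class, taken as those detected in MEFs and at least 2-fold above NSCs there. Only compared genes were counted, so each member also had to be detected in NSC 2F iPSCs or ESCs. A member undetected in ESCs thus had to be detected in NSC 2F iPSCs, and the filter largely set its direction. The reverse held for a member undetected in NSC 2F iPSCs. Over all 16593 named genes, with no detection filter, 393 were still called higher and 213 lower, so the filter changed the genes counted and not those called. How far it shaped the shares of the class was not tested. Of the 1294 genes in the class, 185 (14.3%) were at least 2-fold higher in NSC 2F iPSCs and 27 (2.09%) at least 2-fold lower. They made up 47.1% of the 393 higher genes. Among the 6642 genes that were neither sex-linked nor high in MEFs, 146 (2.20%) were higher and 183 (2.76%) lower. Outside these classes the lower genes therefore outnumbered the higher ones.

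**Figure D3:**
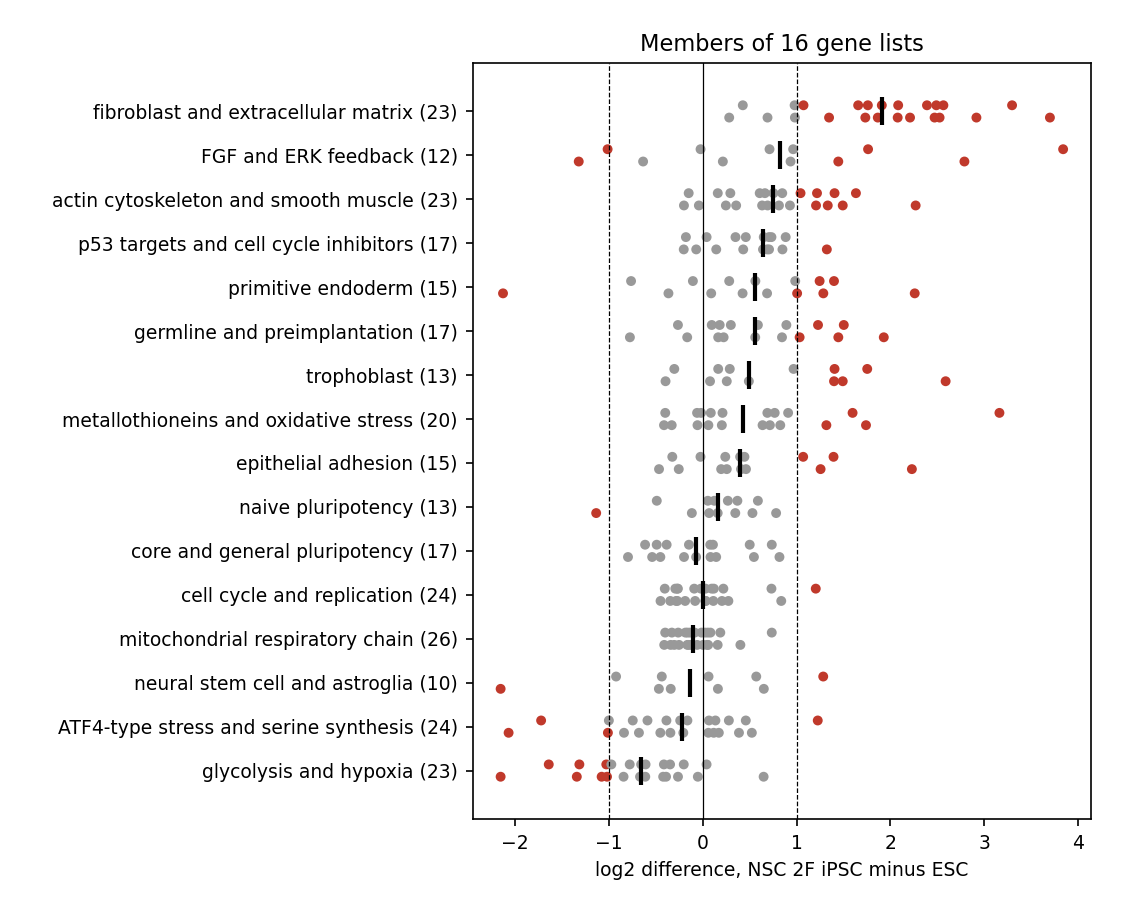
Log2 difference, NSC 2F iPSC minus ESC, of each compared gene (points, red where at least 2-fold apart) in 16 gene lists, with the number of genes in brackets, the list median as a black bar and dashed lines at 2-fold. The fibroblast list has the highest median (1.91) and the glycolysis list the lowest (-0.66).

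In the list of FGF and ERK feedback genes, 4 of 12 were at least 2-fold higher in NSC 2F iPSCs, 2 were lower and 6 lay within 2-fold, with a median of 0.82. That median was 0.58 with undetected values set to the lowest detected value, and 0.94 over the 11 genes detected on both arrays. It was 0.28 with no background subtracted, 0.50 with an offset of 50 and 1.09 with the values the authors processed. *Egr1*, an immediate-early zinc-finger factor induced by ERK signalling and serum, was at 11.87 in NSC 2F iPSCs and 8.03 in ESCs, 14.3-fold higher, and the other 6 arrays lay between 11.77 and 13.34. The ESC array stood alone among the 8 for this gene. *Phlda1*, an early-response gene with a pleckstrin homology-like domain, was at 10.67 in NSC 2F iPSCs and 7.88 in ESCs, 6.91-fold higher, with all other arrays between 9.34 and 11.56. *Fos*, an AP-1 subunit, was at 7.39 in NSC 2F iPSCs and 5.94 in ESCs, and the other 6 arrays lay between 7.41 and 9.10. *Spry4*, a feedback inhibitor of receptor tyrosine kinase signalling, was at 8.34 in NSC 2F iPSCs and 6.58 in ESCs, 3.39-fold higher. Not all the list went the same way. *Ier3* was at 8.43 in NSC 2F iPSCs and 9.75 in ESCs, and the ETS factor *Etv4* at 8.22 in NSC 2F iPSCs and 9.24 in ESCs. *Dusp6*, the ERK phosphatase, was at 11.22 in NSC 2F iPSCs and 10.26 in ESCs, short of 2-fold.

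In the LIF and STAT3 list 2 of 11 genes were higher and 0 lower, with a median of -0.01. The AP-1 subunit *Junb* was at 8.51 in NSC 2F iPSCs and 6.54 in ESCs, 3.92-fold higher. The oncostatin M receptor *Osmr* was at 6.60 in NSC 2F iPSCs and not detected in ESCs, at least 2.51-fold higher. *Ccn2* (Ctgf), induced by TGF-beta and by YAP, was at 12.47 in NSC 2F iPSCs and 9.94 in ESCs, 5.81-fold higher. *Id2*, a BMP target, was at 8.60 in NSC 2F iPSCs and 6.91 in ESCs, with log2 differences of 0.97 and 1.69 on its 2 detected probes. These were the 2 higher genes of 11 in the BMP and TGF-beta list, whose median was 0.34. That median was -0.02 with undetected values set to the lowest detected value, and -0.11 over the 9 genes detected on both arrays. For *Ccn2* the other iPSCs lay between 12.38 and 12.63. *Nppb*, which encodes the natriuretic peptide BNP, was at 8.46 in NSC 2F iPSCs and not detected in ESCs, at least 9.11-fold higher. Among genes picked after their values were seen, *Egr2* was at 7.33 in NSC 2F iPSCs and *Fosb* at 7.01, both undetected in ESCs and at least 4.15-fold and 3.32-fold higher, and *Arc* was at 7.94 in NSC 2F iPSCs and 5.67 in ESCs.

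Many early-response and actin genes carry a CArG box, the site of serum response factor. A set of 14 genes, most of them of these kinds and higher in NSC 2F iPSCs, was picked by hand after their values were seen. It held *Nppb* but not *Egr1*, *Spry4* or *Cav1*. In the 250 bases before the annotated starts, 2 of the 9 with a promoter in the RefSeq table (build GRCm38.p6) held this motif on either strand, against 1.62% of the 27025 genes in the table and 1.47% of its 32851 promoters. A gene counted where any of its annotated starts matched. For each of the 2 genes 1 promoter is shown, with the match in capitals and the last base lying just before the start. Other annotated starts of *Egr2* held CCATATATGG or no match. That of *Egr2* lies at chr10:67537316-67537565 on the plus strand, 1 of several annotated starts, and that of *Vcl* at chr14:20929148-20929397 on the plus strand.
Egr2: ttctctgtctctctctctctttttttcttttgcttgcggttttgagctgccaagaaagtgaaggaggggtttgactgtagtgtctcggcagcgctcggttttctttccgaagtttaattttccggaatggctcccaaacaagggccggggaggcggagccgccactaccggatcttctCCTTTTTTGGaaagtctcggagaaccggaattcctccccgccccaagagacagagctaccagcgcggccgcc
Vcl: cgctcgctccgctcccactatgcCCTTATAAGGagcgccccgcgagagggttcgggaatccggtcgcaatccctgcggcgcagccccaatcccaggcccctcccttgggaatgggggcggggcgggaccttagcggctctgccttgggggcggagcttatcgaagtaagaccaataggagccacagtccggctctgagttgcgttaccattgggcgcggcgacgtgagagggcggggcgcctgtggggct
*Vcl* (vinculin), which links integrins to actin, was at 11.27 in NSC 2F iPSCs and 10.05 in ESCs, 2.33-fold higher, with the other iPSCs between 11.21 and 11.40. A match describes the letters and does not show binding in either line.

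In the list of actin cytoskeleton and smooth muscle genes 8 of 23 were higher and 0 lower, with a median of 0.75. *Cav1* (caveolin), the coat protein of caveolae, was at 8.40 in NSC 2F iPSCs and 6.14 in ESCs, 4.82-fold higher, and at 14.14 in MEFs. Smooth muscle *Acta2* was at 11.63 in NSC 2F iPSCs and 10.59 in ESCs, 2.06-fold higher, with log2 differences of 0.98 to 1.05 over its 4 detected probes. *Actg2* was at 7.34 in NSC 2F iPSCs and 5.70 in ESCs, 3.10-fold higher. Both were higher again in MEFs, at 14.48 and 10.47. The keratins *Krt8* and *Krt18* were also in this list and are described with the epithelial genes.

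Of 20 genes for metallothioneins and oxidative stress, 4 were at least 2-fold higher in NSC 2F iPSCs, 0 were lower and 16 lay within 2-fold, with a median of 0.42. *Slc30a1* (ZnT1), the zinc exporter of the plasma membrane, was at 9.20 in NSC 2F iPSCs and 6.04 in ESCs, 8.95-fold higher, with MEF 4F iPSCs at 8.99, the clones at 10.75 and 10.11, and the 3 somatic arrays between 6.85 and 7.01. The metal-binding proteins *Mt2* and *Mt1* followed, *Mt2* at 8.83 in NSC 2F iPSCs and 7.09 in ESCs, 3.34-fold higher, and *Mt1* at 14.51 in NSC 2F iPSCs and 13.20 in ESCs, 2.49-fold higher. For all 3 genes every iPSC array was above the ESC array. The fourth gene was the glutathione peroxidase *Gpx2*, at 8.59 in NSC 2F iPSCs and 6.99 in ESCs.

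*Slc30a1*, *Mt1* and *Mt2* are known targets of the zinc sensor MTF-1, which binds metal response elements with the core TGCACNC or TGCGCNC. This core, searched on both strands in the 250 bases before the start, was present for all 3 genes and for 23.8% of the 27025 genes in the RefSeq table (21.4% of its promoters). The promoters are shown because these 3 genes, chosen from the list with their values known, were higher together, with each match in capitals. They lie at chr1:191906531-191906780 (*Slc30a1*), chr8:94172368-94172617 (*Mt2*) and chr8:94178839-94179088 (*Mt1*), all on the plus strand of GRCm38.p6.
Slc30a1: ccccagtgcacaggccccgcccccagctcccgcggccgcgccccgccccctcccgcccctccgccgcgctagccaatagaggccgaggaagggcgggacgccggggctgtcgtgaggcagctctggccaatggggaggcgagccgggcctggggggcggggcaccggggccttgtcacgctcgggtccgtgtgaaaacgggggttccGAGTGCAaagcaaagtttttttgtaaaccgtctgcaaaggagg
Mt2: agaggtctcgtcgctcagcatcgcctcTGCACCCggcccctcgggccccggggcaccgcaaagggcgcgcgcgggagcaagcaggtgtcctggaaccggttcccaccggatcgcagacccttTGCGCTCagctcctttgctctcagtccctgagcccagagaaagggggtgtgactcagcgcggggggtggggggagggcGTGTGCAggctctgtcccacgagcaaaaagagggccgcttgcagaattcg
Mt1: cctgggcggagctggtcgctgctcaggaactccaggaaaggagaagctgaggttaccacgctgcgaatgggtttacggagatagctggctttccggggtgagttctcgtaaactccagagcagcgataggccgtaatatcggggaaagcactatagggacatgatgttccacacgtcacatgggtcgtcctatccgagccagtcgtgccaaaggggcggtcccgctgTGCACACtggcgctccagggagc
*Mt2* held 3 matches, and *Slc30a1* and *Mt1* held 1 each. The matches are a description of these sequences only. The hypoxia response and TEAD cores were searched in the same way in sets picked by hand. Of 9 genes with a promoter, 3 held the hypoxia core (*Ddit4*, *Egln3* and *Mgarp*), against 18.5% of all genes in the table. *Aldoc*, *Pdk1*, *Pfkl*, *Tpi1*, *Stc2* and *Ddit3* held none. The TEAD core was present for both genes with a promoter, *Ccn1* and *Ankrd1*, against 14.4% of all genes.

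Epithelial and trophoblast genes were higher in part. Of 15 epithelial adhesion genes 4 were higher and 0 lower, with a median of 0.40. *Grhl2*, a grainyhead factor that activates epithelial junction genes, was at 9.29 in NSC 2F iPSCs and 7.06 in ESCs, 4.69-fold higher, and the tight junction gene *Cldn4* was at 11.28 in NSC 2F iPSCs and 9.89 in ESCs, 2.63-fold higher. Of 13 trophoblast genes 5 were higher and 0 lower, with a median of 0.49. *Gata3*, a trophoblast transcription factor, was at 7.61 in NSC 2F iPSCs and not detected in ESCs, at least 5.04-fold higher. *Krt8*, an epithelial keratin, was at 10.73 in NSC 2F iPSCs and 9.24 in ESCs, 2.81-fold higher, and its partner *Krt18* at 8.80 in NSC 2F iPSCs and 7.39 in ESCs. The trophoblast regulators *Cdx2*, *Elf5* and *Hand1* were not detected in either line.

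Of 15 primitive endoderm genes 5 were higher and 1 lower, with a median of 0.56. The higher ones were *Thbd*, *Pdgfra*, *Fst*, *Col4a1* and *Col4a2*, each of which was higher again in MEFs than in NSC 2F iPSCs. Against the lowest detected value *Pdgfra* and *Fst* were at least 1.64-fold and 1.74-fold higher, short of 2-fold. The lower one was *Gata6*, the transcription factor that sets the primitive endoderm fate, which was not detected in NSC 2F iPSCs and was at 6.76 in ESCs, at least 3.04-fold lower, with the clones at 6.78 and 6.80. *Gata4*, *Sox17* and *Foxa2* were not detected in either line. The list thus held matrix and signalling genes on the higher side and a lineage factor on the lower. *Inhba*, the activin A subunit, was at 8.57 in NSC 2F iPSCs and 6.21 in ESCs, 5.12-fold higher, and at 11.41 in MEFs. In the primed epiblast and Nodal list to which it belongs, 2 of 11 genes were higher, *Fst* again among them, and 0 lower. In the germline and preimplantation list 5 of 17 genes were higher and 0 lower, with a median of 0.56. Of those 5, *Rhox5*, *Taf7l* and *Tktl1* are X-linked, and the others were *Asz1* and *Tex19.1*, which act in transposon silencing in germ cells. *Tex19.1* was at 11.71 in NSC 2F iPSCs and 10.68 in ESCs, 2.05-fold higher. *Pramel7*, in the list of genes of 2-cell-like cells, was at 7.08 in NSC 2F iPSCs and not detected in ESCs, at least 3.50-fold higher, and *Zscan4c* was at 7.94 in NSC 2F iPSCs and 8.17 in ESCs.

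**Figure D4:**
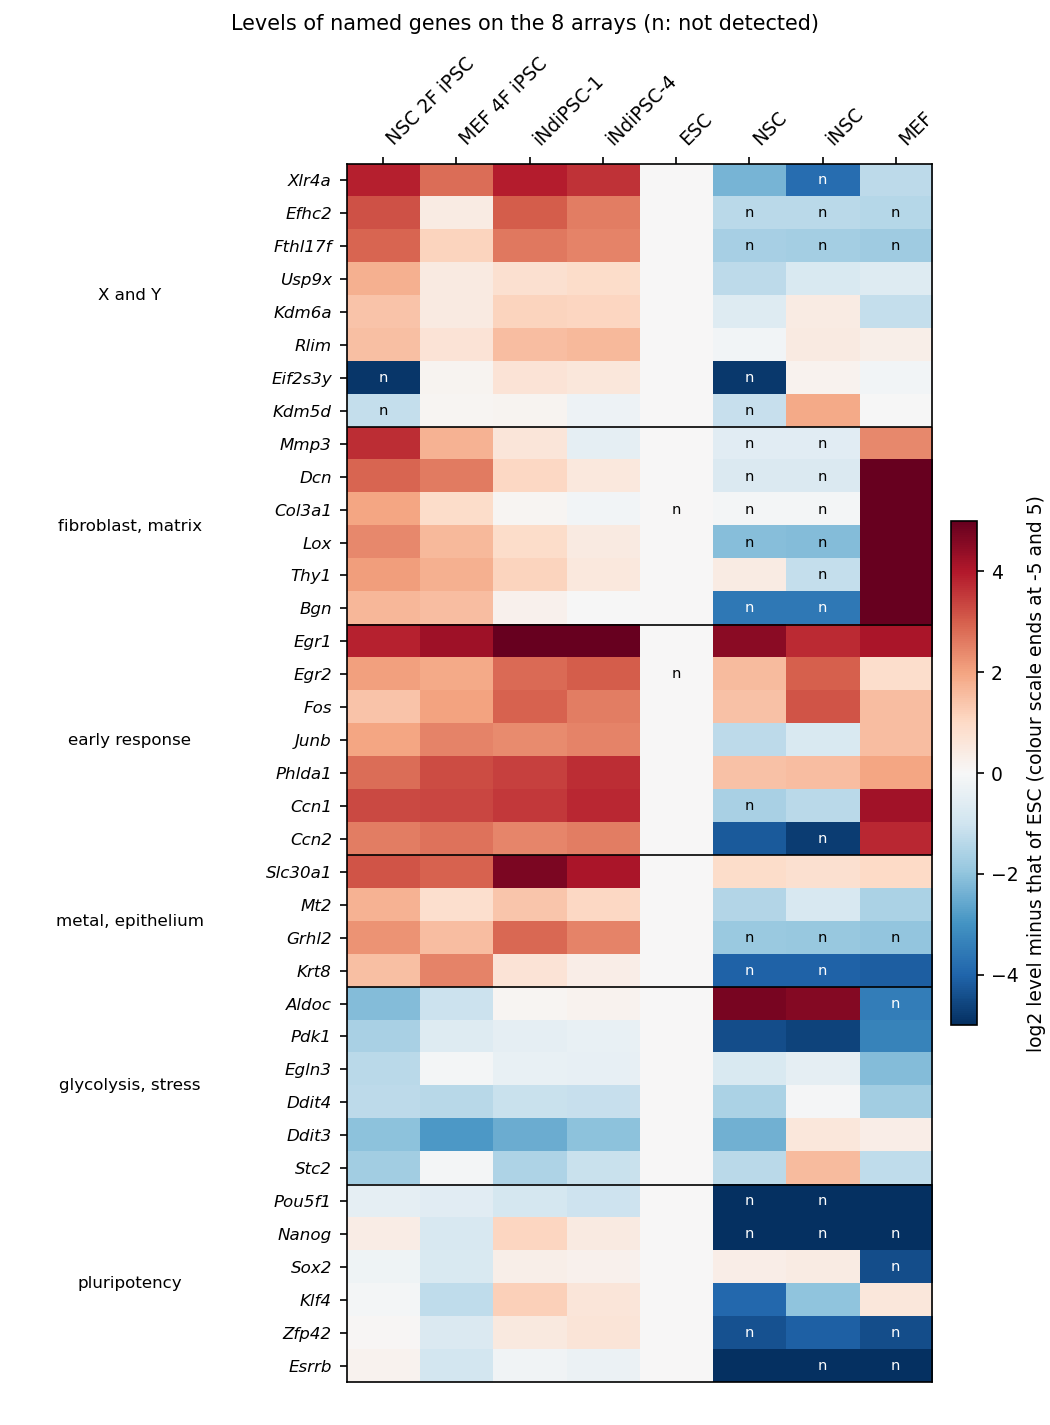
Log2 level of named genes (rows) on each of the 8 arrays (columns), drawn as the difference from the ESC array, with red for higher, blue for lower and n for not detected. Egr1, Junb and Ccn2 are red in all 4 iPSC columns, Eif2s3y is deep blue in NSC 2F iPSCs and NSCs alone, and the fibroblast genes other than Mmp3 are deepest red in MEFs.

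Of 23 glycolysis and hypoxia genes compared, 0 were higher in NSC 2F iPSCs and 7 at least 2-fold lower (6 against the lowest detected value), with a median log2 difference of -0.66 and 2 genes above 0. *Aldoc* (aldolase C), a glycolytic enzyme, was at 6.40 in NSC 2F iPSCs and 8.55 in ESCs, 4.45-fold lower, with MEF 4F iPSCs at 7.46, the clones at 8.64 and 8.71, and NSCs at 13.30. *Pdk1*, the kinase that diverts pyruvate from the mitochondria, was at 8.55 in NSC 2F iPSCs and 10.19 in ESCs, 3.12-fold lower, with the other iPSCs between 9.52 and 9.81. The prolyl hydroxylase *Egln3*, induced by hypoxia, was at 6.99 in NSC 2F iPSCs and 8.33 in ESCs, 2.53-fold lower. In these 3 genes NSC 2F iPSCs were the lowest of the 5 pluripotent arrays. *Ddit4* (Redd1), an inhibitor of mTORC1, was at 9.28 in NSC 2F iPSCs and 10.60 in ESCs, with the other iPSCs between 9.20 and 9.49, so that here ESCs stood apart. The triosephosphate isomerase *Tpi1* was at 11.54 in NSC 2F iPSCs and 12.62 in ESCs, 2.11-fold lower. Its 3 detected probes differed by log2 values of -1.08 to -0.77. *Pfkl* (liver phosphofructokinase) was at 10.14 in NSC 2F iPSCs and 11.16 in ESCs, but another of its probes differed by -0.03. Another 2 members of the list, chosen after their values were seen, stayed short of 2-fold, *Ldha* (lactate dehydrogenase A) at 11.65 in NSC 2F iPSCs and 12.50 in ESCs, and *Gapdh* at 14.02 in NSC 2F iPSCs and 14.28 in ESCs.

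Outside the list, *Mgarp*, a mitochondrial protein induced by hypoxia, was at 8.03 in NSC 2F iPSCs and 10.23 in ESCs, 4.59-fold lower, and *Eno2*, a neuronal enolase of glycolysis, was not detected in NSC 2F iPSCs and was at 7.04 in ESCs, at least 3.69-fold lower.

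Stress and secreted factors of the ATF4 type were lower in a few genes. Of 24 genes, 1 was higher and 3 lower, with a median of -0.22. *Ddit3* (CHOP), a transcription factor of the unfolded protein response, was at 6.05 in NSC 2F iPSCs and 8.12 in ESCs, 4.19-fold lower, and the other iPSCs lay between 5.25 and 6.05. The secreted glycoprotein *Stc2* was at 5.46 in NSC 2F iPSCs and 7.18 in ESCs, 3.30-fold lower, with MEF 4F iPSCs at 7.10. *Chac1*, which degrades glutathione, was at 9.81 in NSC 2F iPSCs and 10.81 in ESCs, 2.01-fold lower. The higher gene was *Atf3*, at 5.65 in NSC 2F iPSCs and undetected in ESCs, at least 1.30-fold higher, which is short of 2-fold against the lowest detected value. In the cholesterol synthesis list 0 of 17 genes were higher, and the 2 lower ones were the fatty acid desaturases *Scd1*, at 7.92 in NSC 2F iPSCs and 9.48 in ESCs, and *Scd2*, at 6.25 in NSC 2F iPSCs and 7.29 in ESCs.

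The largest lower autosomal difference was that of *Ipp*, a kelch-family gene first described as driven by an endogenous retroviral element in the mouse. *Ipp* was at 6.70 in NSC 2F iPSCs and 10.26 in ESCs, 11.8-fold lower, with MEF 4F iPSCs at 10.47 and the clones at 11.81 and 11.46. The 3 somatic arrays, NSCs among them, lay between 6.18 and 6.84, near the NSC 2F iPSC value. *Apoa2*, a lipoprotein of the visceral endoderm and liver, was at 5.91 in NSC 2F iPSCs and 8.80 in ESCs, 7.39-fold lower, and was not detected in either clone. The amine oxidase *Aoc3* was not detected in NSC 2F iPSCs and was at 7.40 in ESCs, at least 4.73-fold lower. The transmembrane protease *Tmprss11a* was not detected in NSC 2F iPSCs and was at 7.09 in ESCs, at least 3.82-fold lower, with MEF 4F iPSCs at 7.03 and the clones below detection. *Robo4*, an endothelial guidance receptor, was at 5.57 in NSC 2F iPSCs and 7.39 in ESCs, 3.53-fold lower, and at 7.98 in MEF 4F iPSCs. *Hal* (histidine ammonia-lyase) was at 6.29 in NSC 2F iPSCs and 8.08 in ESCs, 3.47-fold lower, and *Ccdc3* and *Crtac1* were 3.37-fold and at least 3.30-fold lower. The last pair of the largest differences were higher in NSC 2F iPSCs, and for both the clones lay far below that line. *AA467197* was at 8.63 in NSC 2F iPSCs and 5.56 in ESCs, 8.42-fold higher, and at 9.97 in MEF 4F iPSCs. *Cryba4*, a lens crystallin, was at 8.23 in NSC 2F iPSCs and not detected in ESCs, at least 7.78-fold higher, with the other iPSCs at 5.77 or below.

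Of 7 neural stem cell markers on the array 2 were detected in NSC 2F iPSCs and the same 2 in ESCs, and *Fabp7*, *Olig2*, *Pax6*, *Sox1* and *Gfap* were detected in neither. Of 10 compared genes of the neural stem cell and astroglia list 1 was higher and 1 lower, with a median of -0.14. The higher one was *Nes* (nestin), an intermediate filament of neural progenitors, at 7.08 in NSC 2F iPSCs and 5.79 in ESCs, 2.44-fold higher, against 10.98 in NSCs and 8.31 in MEF 4F iPSCs. Its probes differed by log2 values of 0.69 to 1.28. The lower one was *Aldoc*. *Olig1*, an oligodendrocyte lineage factor, was at 8.92 in NSC 2F iPSCs and 10.67 in ESCs, 3.37-fold lower, with MEF 4F iPSCs at 9.01, NSCs at 14.39 and both clones below detection. *Acsl6*, an acyl-CoA synthetase of brain, was at 5.58 in NSC 2F iPSCs and not detected in ESCs, at least 1.23-fold higher, and *Atp1b2*, a glial sodium pump subunit, was at 5.50 in NSC 2F iPSCs and 5.34 in ESCs. For *Tpmt*, a thiopurine methyltransferase, the log2 difference was -0.44, and for *Hebp2*, a heme-binding protein, it was 0.40. None of these 4 reached 2-fold.

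NSC-specific genes were taken as those detected in NSCs and at least 2-fold above both MEFs and ESCs there. Of 431 compared, 17 (3.94%) were higher in NSC 2F iPSCs and 19 (4.41%) lower, against 4.80% and 2.60% of all genes. The 17 included X-linked genes, which were shifted up as a group: *Gm14685*, *Tmem47*, *Mmgt1*, *Rbmx*, *Bhlhb9*, *Septin6* and *Syn1*. The rest of the 17 and all of the 19 were autosomal. This class uses the ESC array and so shares it with the comparison. Taken as NSCs over MEFs alone, the class had 1371 genes, of which 26 (1.90%) were higher and 49 (3.57%) lower.

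The other lists held few genes apart. Of the 35 lists, 6 held no gene 2-fold apart in either direction, among them core pluripotency (17 genes), the mitochondrial respiratory chain (26 genes, median -0.10), heat shock and chaperones (14 genes, median 0.04) and glycine, threonine and folate metabolism (9 genes, median 0.06). Cell cycle and replication had 1 higher gene of 24, the cyclin *Ccnd2*, and a median of 0.00, and Polycomb and chromatin 1 of 27, the X-linked *Kdm6a*. Among p53 targets and cell cycle inhibitors 1 of 17 was higher, the kinase *Plk2* at 8.64 in NSC 2F iPSCs and 7.31 in ESCs, while 14 lay above 0 and the median was 0.64. *Cdkn1a* (p21), short of 2-fold on the probe used, had log2 differences of 0.71 to 1.31 over its 3 detected probes. In the DNA methylation list *Gadd45g* was higher, at 9.55 in NSC 2F iPSCs and 8.25 in ESCs, and the glycosylase *Mbd4* lower, at 6.24 in NSC 2F iPSCs and 7.63 in ESCs. Among 22 imprinted genes *Peg3* was called higher, at 6.23 in NSC 2F iPSCs and undetected in ESCs, at least 1.95-fold, and *Ppp1r9a* lower, at 7.33 in NSC 2F iPSCs and 8.52 in ESCs.

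The other pluripotent lines were placed against the midpoint of the 2 arrays for each of the 606 genes, as a description, since the same 2 arrays chose the genes. For the 393 higher genes, MEF 4F iPSCs lay nearer to NSC 2F iPSCs than to ESCs in 261 (66.4%), clone 1 in 239 (60.8%) and clone 4 in 230 (58.5%). All 3 lay nearer to NSC 2F iPSCs in 151 of these genes and nearer to ESCs in 54. For the 213 lower genes the counts nearer to NSC 2F iPSCs were 147 (69.0%), 166 (77.9%) and 157 (73.7%), with all 3 nearer to NSC 2F iPSCs in 105 and nearer to ESCs in 19. For the 79 X-linked higher genes they were 27 (34.2%), 55 (69.6%) and 45 (57.0%), so MEF 4F iPSCs were nearer to ESCs on most of these. Set against the same ESC array, 7.39% of 8567 genes were higher and 3.15% lower in MEF 4F iPSCs, 8.33% and 5.99% of 8380 in clone 1, and 6.56% and 5.17% of 8383 in clone 4. The 2 clones are labelled with another strain than the ESCs, and how the ESCs were grown is not given.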

How the data were processed

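RNA of each of the 8 lines was hybridized once, as biotinylated cRNA, to an Illumina mouse bead array. The deposited table holds, per the file headers, scanner intensities and detection p-values for each array, which were used as given. A second deposited table holds the values the authors processed. Its scale was checked against the intensities and read as log2, and it served as an alternative (BeadStudio 3.2, RMA and lumi are named in the submitters' processing notes, with their settings not given in the sources used here). Intensities of all 8 arrays were corrected with limma 3.58.1 in R 4.3.3 (neqc: normexp background from the detection p-values, offset of 16, quantile normalization, log2). Symbols came from the platform annotation, updated through the RefSeq gene table of GRCm38.p6, which gave 23978 of 25697 probes 1 symbol and left 1719 (6.69%) without one. A gene was read from its probe with the highest mean.

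Groups came from the sample labels. With 1 array a side no test was run, and a gene was called at 2-fold. The precision is limited by the number of arrays. The genes named were the 15 largest differences in each direction with undetected values at the floor, the members of 35 gene lists that were 2-fold apart with the first 3 of each list as examples, the genes the study names, and the 3 furthest genes of any chromosome whose median lay over 0.2 from that of all genes. Others are named as chosen after their values were seen. The comparison, its members and the lists were chosen with earlier results of these data known. The calling of 2-fold genes was tested on simulated data. Only well-detected probes were changed there, by folds past the threshold. The recovery of dim probes and of differences near 2-fold was not tested. Alternatives covered background, scaling, offset, arrays normalized together, detection, threshold and the probe of a gene.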

Additional observations from a re-analysis of the deposited data

How the results depend on the processing

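The direction of every named gene that was 2-fold apart was kept under all 7 alternatives for named genes, but 54 of 110 came under 2-fold in at least 1 of them, all 54 with no background subtracted and 21 with an offset of 50. Of the 30 largest differences 23 stayed past 2-fold throughout, all 15 higher and 8 of 15 lower. Against 807 probes apart, 393 genes higher and 213 lower, the counts were 145, 97 and 22 with no background subtracted, 338, 212 and 65 with an offset of 50, 1653, 667 and 483 with the values the authors processed, and 96, 65 and 11 at 4-fold. Among features detected on both arrays 523 probes were apart and 248 genes higher. Leaving out the genes high in MEFs, an alternative chosen after seeing the data as was leaving out sex-linked genes, gave 208 higher. The median of the fibroblast list (1.91) was 1.00 with no background subtracted, 2.14 with the processed values and 1.58 with an offset of 50. The X median (0.67) was 0.38, 0.76 and 0.49 under those settings, 0.60 with 75th percentile scaling, 0.54 with undetected values at the floor and 0.60 over genes detected on both arrays. The other lines nearer to NSC 2F iPSCs on higher genes were 73.5% (MEF 4F iPSCs), 67.9% (clone 1) and 64.4% (clone 4) with the processed values. NSC-specific genes higher (17 of 431) were 26 of 1371 when taken over MEFs alone. They were 2 of 255 with no background subtracted and 51 of 504 with the processed values. Of all 8193 genes, 97 and 667 were higher under those last 2 settings. The share of the class that was higher exceeded that of all genes only with the processed values. Leaving the background in, or adding a larger offset, compresses differences of dim probes by construction, and the cause of the other changes was not tested. Medians of all genes moved to -0.06 at most. No paired analysis was possible because each group has 1 array.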

Other observations

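Of the higher genes with several detected probes (72), all probes had the same direction in 68 and all passed 2-fold in 41. Of the 39 such lower genes, all probes had the same direction in 35 and all passed 2-fold in 11, and 4 genes on each side held a probe of the opposite direction.

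Genes picked here after their values were seen lie outside the lists and the sex chromosomes. *Lrrc57* was at 7.63 in NSC 2F iPSCs, 7.10 in MEF 4F iPSCs, 8.26 in NSCs and 7.49 in MEFs, and was not detected in iNSCs, either clone or ESCs. It was thus detected on 4 of 5 arrays labelled B6D2F1/J, the ESC array being the exception, and on 0 of 3 labelled C3H. Those 3 are the iNSCs and clones made from iNSCs, so they share an origin, and the part of strain was not tested. *Lbh*, a transcription cofactor, was at 8.69 in NSC 2F iPSCs and 6.10 in ESCs, with the other iPSCs between 7.78 and 8.59. *Glrx*, a glutaredoxin, was at 8.94 in NSC 2F iPSCs and 6.87 in ESCs, with the other iPSCs between 8.80 and 10.19.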
